A study of Homo sapiens with 30 samples.

Results

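The exons described here are those whose use could be compared between day 8 (D8) and day 0 (D0) of cardiomyocyte differentiation in cells labelled QKI knockout (KO). They were chosen by their presence in the deposited skipped-exon tables of both days, with the same exon and the same neighbouring exons, and by read depth: their junction reads averaged 10 or more per KO library on each day. Of 59212 events shared by the tables, 51365 met this rule. They cover 40432 distinct exons in 10398 genes, since an exon with different neighbours counts as separate events. The rule used read depth only and not the level of inclusion. The 475 events just below the read minimum had a median absolute difference of 0.0777 between the days, and the 487 just above it 0.0857.

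All groups were Hues6 cells, an established human embryonic stem cell line, with 3 poly(A) RNA libraries each. The KO groups were D8, beating cultures made with 1.25 uM CHIR, which inhibits GSK3 and so turns on WNT signalling, and 1.5 ng/mL BMP4; D4, at the cardiac progenitor stage of the same treatment; and D0, undifferentiated cells. The WNT inhibitor C59 followed in all differentiating cultures. The wild-type (WT) groups were D8 and D4, made with 1.5 uM CHIR and 1.5 ng/mL BMP4, and D0. After D0, genotype and CHIR dose therefore cannot be told apart. The labels name neither the deletion nor the number of KO clones, nor do they say whether libraries came from separate cultures, so the p-values here measure spread between libraries, which may be technical.

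A skipped exon is one that the spliceosome can either join into the messenger RNA or leave out. QKI is an RNA-binding protein of the STAR family that binds introns near such exons and changes whether they are used, and it is known for this in muscle and glia. Heart muscle is also known for exchanging exons of sarcomere, cytoskeletal and signalling genes as it matures, under regulators such as RBFOX, MBNL and RBM24. The inclusion level is the share, from 0 to 1, of transcripts spliced between a given pair of neighbours that contain the exon. It is estimated from junction reads and corrected for the lengths over which reads can fall. The same exon can have another level with other neighbours.

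The following coding exons carry the main results, and they are shown so that their size and sequence can be set beside their values. Each is given 5′ to 3′ in the transcript, with the exon in capitals and 10 bases of each neighbouring exon in lower case, from GENCODE v29 transcripts matched by gene, exon length and intron lengths. Positions are those of the deposited tables (hg19). The first group rose in KO and the second fell, and the 2 ACTN1 exons are neighbours that moved in opposite directions. The QKI exon rose with the neighbours held on both days, and its levels with other neighbours at D8 are given below.
MEF2D, 21 nt, chr1:156446286-156446306, minus strand: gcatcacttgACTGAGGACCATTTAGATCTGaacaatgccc
CSNK1G3, 24 nt, chr5:122941033-122941056, plus strand: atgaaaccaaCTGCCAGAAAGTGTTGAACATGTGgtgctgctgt
MYH10, 30 nt, chr17:8479961-8479990, minus strand: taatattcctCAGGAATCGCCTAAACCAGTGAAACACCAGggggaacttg
CAMK2G, 33 nt, chr10:75587847-75587879, minus strand: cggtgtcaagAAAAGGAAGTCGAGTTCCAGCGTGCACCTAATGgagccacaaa
SEC31A, 39 nt, chr4:83783687-83783725, minus strand: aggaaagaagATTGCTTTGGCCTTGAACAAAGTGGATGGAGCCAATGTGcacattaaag
MFF, 60 nt, chr2:228217230-228217289, plus strand: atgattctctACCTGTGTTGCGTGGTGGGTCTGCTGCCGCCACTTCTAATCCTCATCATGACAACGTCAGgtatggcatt
NAV2, 66 nt, chr11:20071382-20071447, plus strand: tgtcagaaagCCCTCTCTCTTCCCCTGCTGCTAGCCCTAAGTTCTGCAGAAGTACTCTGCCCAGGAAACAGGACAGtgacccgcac
ACTN1, 66 nt, chr14:69345175-69345240, minus strand: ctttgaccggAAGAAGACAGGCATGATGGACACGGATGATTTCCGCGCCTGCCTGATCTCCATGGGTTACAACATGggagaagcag
QKI, 117 nt, chr6:163899812-163899928, plus strand: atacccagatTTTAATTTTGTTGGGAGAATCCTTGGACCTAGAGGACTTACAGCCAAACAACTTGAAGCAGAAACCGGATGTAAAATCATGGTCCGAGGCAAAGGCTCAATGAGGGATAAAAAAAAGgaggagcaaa
TPM1, 76 nt, chr15:63353397-63353472, plus strand: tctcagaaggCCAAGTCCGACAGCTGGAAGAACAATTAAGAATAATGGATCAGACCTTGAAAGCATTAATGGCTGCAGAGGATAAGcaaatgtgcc
ACTN1, 81 nt, chr14:69345706-69345786, minus strand: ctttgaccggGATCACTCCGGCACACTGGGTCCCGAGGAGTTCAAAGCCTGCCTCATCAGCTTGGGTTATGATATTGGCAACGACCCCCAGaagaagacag
SLK, 93 nt, chr10:105770574-105770666, plus strand: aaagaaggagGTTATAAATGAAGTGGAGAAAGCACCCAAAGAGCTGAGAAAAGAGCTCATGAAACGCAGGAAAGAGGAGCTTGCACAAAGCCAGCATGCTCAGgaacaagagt

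QKI itself was measured first. Its gene level was 340, 329 and 336 CPM (gene counts scaled to library size) in the libraries labelled KO at D8, against 41.3, 41.3 and 35.5 CPM in KO at D0. In WT it was 368, 319 and 285 CPM at D8, against 300.4, 294 and 286 CPM at D0. The D0 KO libraries were thus low and the D8 libraries labelled KO were within the WT range, so gene level does not check the KO label at D8. Between the days, QKI was 3.09 log2 units higher in the libraries labelled KO at D8 than in KO at D0 (SE 0.10, edgeR adjusted p = 1.8e-17). The junctions of QKI did differ between the arms at D8: a 117-nt exon was included at 0.137, 0.119 and 0.131 in the second arm, against 1, 1 and 1 in the first, with 1 pair of neighbours. With another pair it was at 0.971, 0.981 and 0.976 against 0.996, 0.999 and 0.998, and with a further pair, on 220 and 160 reads in all, at 0.621, 0.652 and 0.703 against 1, 1 and 1. The tables name neither arm, and the second is taken as KO: its junction reads per gene, relative to the first arm, correlated with the KO to WT ratio of gene counts at r = 0.947 at D8 (8893 genes) and r = 0.909 at D0 (8832 genes). These correlations run across genes, which are not independent replicates.

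Gene counts totalled 40001076 to 89948185 per library, and the members held a median of 215 junction reads per KO library at D8 and 284 at D0. The summed level of 14 cardiomyocyte markers was 30435 to 35694 CPM in KO and 11124 to 19171 CPM in WT at D8, against 33.5 to 34.4 CPM in KO and 19.8 to 23.6 CPM in WT at D0, and all 14 rose in KO. MYH6 was a large part of the D8 sums, with means of 18032 CPM in KO and 8318 CPM in WT. At D8, ACTN2 (95.5 and 402 CPM) and NPPA (146 and 170 CPM) had lower means in KO than in WT. The other cardiomyocyte markers had higher means in KO. All 10 pluripotency markers fell in KO, with sums of 590.2 to 686 CPM at D8 against 10513 to 11130 CPM at D0. The D8 sum was mostly LIN28A (mean 460 CPM), followed by TDGF1 (57.7 CPM). POU5F1 was at 2.86 CPM, SOX2 at 9.59 CPM and NANOG at 0.0305 CPM in KO at D8. Among the other cell types, 8 surface ectoderm and amnion markers summed to 809 to 975 CPM in KO and 1910 to 2869 CPM in WT at D8. The KO sum was mostly KRT18 and EPCAM (means 717 and 158 CPM), which were at 436 and 288 CPM in KO at D0. All 8 had lower means in KO than in WT at D8. The gap was wide for TFAP2A (1.46 and 173 CPM), GABRP (3.16 and 290 CPM) and KRT7 (8.95 and 208 CPM). At D8, 8 endoderm markers summed to 293 to 439 CPM in KO and 143 to 224 CPM in WT. The endoderm sum was mostly TTR (means 216 and 82.8 CPM). AFP (27.8 and 43.1 CPM) and ALB had lower means in KO, and the other endoderm markers higher ones. Smooth muscle and fibroblast markers summed to 1596 to 1868 CPM in KO at D8 against 369 to 405 CPM in KO at D0, endothelial markers to 630.5 to 688 against 283 to 316 CPM, epicardium markers to 3.02 to 4.95 against 0.993 to 1.41 CPM, and neural markers to 4.09 to 5.83 against 8.9 to 10.1 CPM. In these bulk samples, fewer cells of a type and less RNA per cell cannot be told apart, and the part of cell composition in the exon switches was not tested. At gene level 18036 of 21761 genes (82.9%) passed the test between KO D8 and D0.

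Most exons were used alike on both days: 33898 members (66.0%) were included above 0.9 in KO at both D8 and D0. The median difference over all members was 0.000667. An event was called at an edgeR adjusted p under 0.05 with an absolute difference of at least 0.1, and 2902 events were called, 5.65% of those tested. They lay in 2593 exons of 1836 genes. Inclusion was higher at D8 in 2028 called events (3.95% of all tested) and lower in 874 (1.7%). Called rises had a median inclusion of 0.831 at D8 against 0.424 at D0, and called falls 0.443 at D8 against 0.820 at D0. A difference of at least 0.5 was reached by 223 rises and 53 falls. In 2816 of the 2902 called events the libraries of the 2 days did not overlap. A call already needs a small p and a difference of at least 0.1, so this adds little to the calls. The share without overlap over all members was not counted. Both a called rise and a called fall were held by 179 genes.

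The largest rise was in NAV2. A 66-nt exon of this gene, a microtubule-associated protein of neurite growth, was included at 0.902, 1 and 0.986 in KO at D8, against 0, 0.042 and 0.134 in KO at D0. The difference was 0.904 (SE 0.05, edgeR adjusted p = 1.32e-13), on a mean of 89.7 reads per library at D8 and 13.3 at D0. A 33-nt exon of CAMK2G, a calcium/calmodulin-dependent kinase, stood at 0.877, 0.843 and 0.921 at D8, against 0.013, 0 and 0.012 at D0 in KO (difference 0.872, SE 0.023, edgeR adjusted p = 4.56e-20). These KO libraries were near full inclusion at D8 and near full skipping at D0. A 30-nt exon of MYH10, the heavy chain of non-muscle myosin IIB, reached 0.881, 0.938 and 0.921 at D8, against 0.092, 0.099 and 0.091 at D0 in KO (difference 0.819, SE 0.0171, edgeR adjusted p = 1.55e-82). A 96-nt exon of SVIL, the actin- and membrane-binding protein supervillin, was at 0.807, 0.841 and 0.854 in KO at D8, against 0, 0.008 and 0.007 in KO at D0. A 57-nt exon of SORBS2, an adaptor of the Z-disc and cell adhesions, was at 0.805, 0.823 and 0.831 in KO at D8, against 0.017, 0.026 and 0 in KO at D0. The libraries of the 2 days did not overlap in these 5 exons, as the rule for naming them required.

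The other rises among the 12 largest were the adhesion and LIM-domain protein LMO7 (282 nt, difference 0.891), the gluconeogenic enzyme FBP1 (194 nt, 0.846), the guanine nucleotide exchange factor ARHGEF11 (96 nt, 0.830), the transmembrane collagen COL13A1 (78 nt, 0.826), RTN3 (57 nt, 0.812), the GABA-B receptor subunit GABBR1 (151 nt, 0.778) and ZNF782 (59 nt, 0.777). Those of ZNF782 and RTN3 rest on few reads, with means of 10 and 20.3 per KO library at D8. Both missed the threshold with limma on logit inclusion levels, at adjusted p = 0.113 for ZNF782 and 0.0739 for the RTN3 exon.

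**Figure D1:**
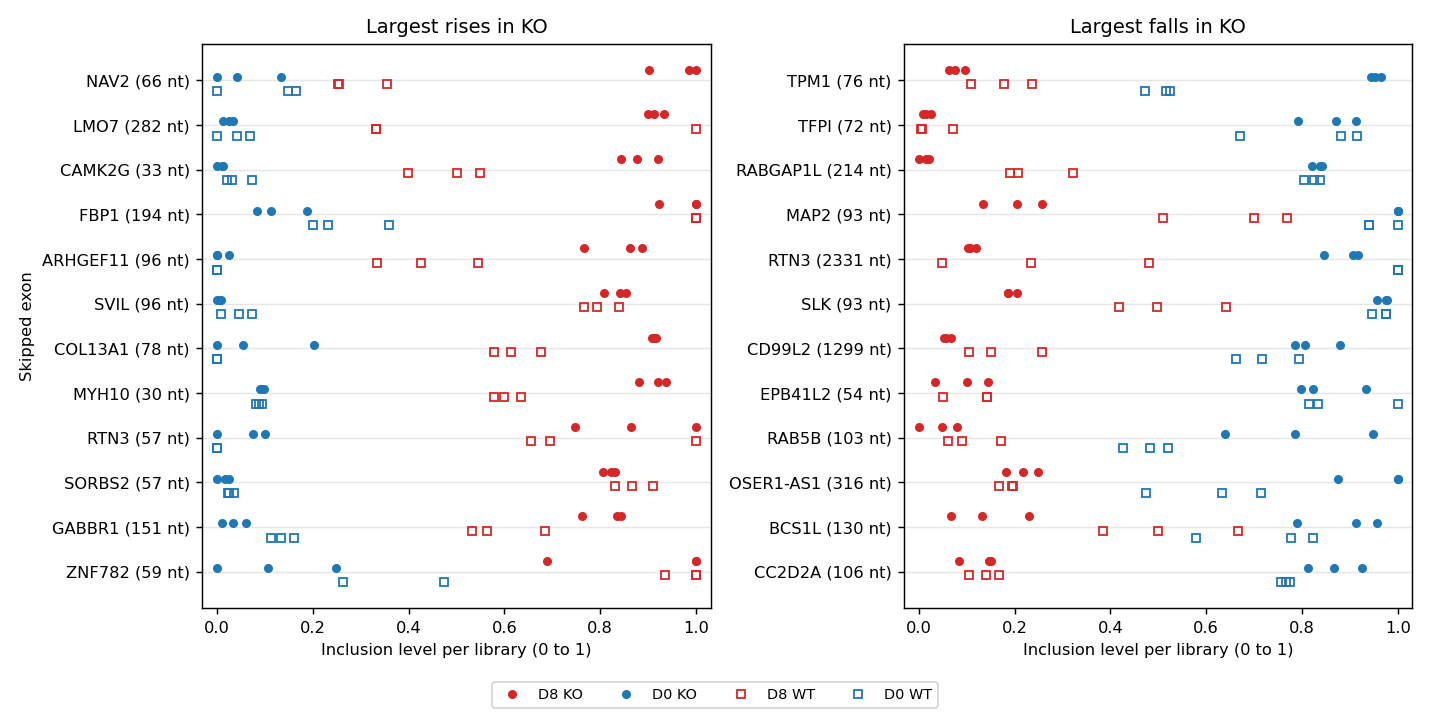
Inclusion level per library (x axis, 0 to 1) of the 12 exons with the largest rise (left) and fall (right) in KO, 1 row per exon with its length in nucleotides. Filled circles are KO and open squares WT, red at D8 and blue at D0; in all 24 rows the D8 and D0 KO libraries do not overlap, as the rule for choosing them required, while several WT exons, such as NAV2, move less.

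The largest fall was a 76-nt exon of TPM1, the tropomyosin that winds along actin filaments. It was included at 0.097, 0.076 and 0.064 in KO at D8, against 0.952, 0.965 and 0.944 in KO at D0, a difference of -0.875 (SE 0.0114). A neighbouring TPM1 exon of the same length, looked up after these values were seen, moved the other way: it was at 0.7, 0.756 and 0.797 in KO at D8, against 0.016, 0.016 and 0.012 in KO at D0. The skipping reads of the first exon join its upstream neighbour to this second exon, so opposite movement is partly built into the pair of measures. ACTN1, the actin cross-linker alpha-actinin, showed a like exchange. Its 81-nt exon fell to 0.24, 0.245 and 0.18 in KO at D8, against 0.868, 0.823 and 0.851 in KO at D0 (difference -0.626, SE 0.0247, edgeR adjusted p = 3.63e-35). Its 66-nt neighbour, also looked up afterwards, was at 0.942, 0.948 and 0.966 in KO at D8, against 0.309, 0.349 and 0.35 in KO at D0. With another neighbour the same 66-nt exon was at 0.347, 0.424 and 0.456 in KO at D8, against 0.02, 0.027 and 0.027 in KO at D0, so its level depends on the neighbours counted. The 66-nt exon is also a neighbour in the 81-nt event, so here too the opposite movement is partly built in. As background, such neighbouring exons of tropomyosin and alpha-actinin genes are known as alternative versions of the same protein segment.

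A 93-nt exon of SLK, a kinase that acts on the cytoskeleton, fell to 0.206, 0.187 and 0.186 in KO at D8, against 0.975, 0.977 and 0.956 in KO at D0 (difference -0.776, SE 0.00933, edgeR adjusted p = 4.52e-45). A 214-nt exon of RABGAP1L, a GTPase-activating protein for Rab proteins, was at 0, 0.016 and 0.022 in KO at D8, against 0.821, 0.838 and 0.842 in KO at D0. A 72-nt 5′ UTR exon of TFPI, an inhibitor of the clotting cascade, was at 0.009, 0.026 and 0.015 in KO at D8, against 0.871, 0.791 and 0.913 in KO at D0. All 3 were nearly lost or much reduced at D8. The remaining falls among the 12 largest were MAP2 (difference -0.801, on means of 10.7 reads per KO library at D8 and 11 at D0), a 2331-nt exon of RTN3 (-0.780), CD99L2 (-0.764), the membrane skeleton protein EPB41L2 (-0.758), the endosomal GTPase RAB5B (-0.748), OSER1-AS1 (-0.742), the mitochondrial chaperone BCS1L (-0.742) and the ciliary protein CC2D2A (-0.741).

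The host genes were read by role from 9 lists, which were chosen with earlier results of these data known, so their counts are descriptions. Sarcomere and Z-disc genes had 32 of 151 events called (21.2%, 25 higher and 7 lower), calcium handling and ion channel genes 22 of 117 (18.8%, 18 and 4), and membrane skeleton, costamere and adhesion genes 85 of 479 (17.7%, 65 and 20), where 5.65% of all members were called. These calls lay in 15 of 26, 12 of 23 and 31 of 56 genes with members, against 1836 of 10398 genes over all members. TPM1 and ACTN1 each gave several of the sarcomere calls, some of them for the same exon. The median difference over all events of these lists was 0.0013, 0.0043 and 0.004, against 0.000667 over all members. Beside the exons above, the named sarcomere exon was an 86-nt exon of ACTN2, the muscle alpha-actinin, at 0.661, 0.666 and 0.62 in KO at D8 against 0.06, 0 and 0 in KO at D0, where only 10 reads per library supported it. For calcium handling, the named exons were a 178-nt exon of ATP2B4, a calcium pump of the cell membrane, and a 42-nt exon of CAMK2D, a calcium/calmodulin-dependent kinase. ATP2B4 was at 0.761, 0.862 and 0.829 in KO at D8, against 0.033, 0.097 and 0.073 in KO at D0, and CAMK2D at 0.619, 0.711 and 0.695 against 0, 0 and 0.009. For the membrane skeleton, a 93-nt exon of ANK2, the ankyrin that anchors ion channels, was at 0.881, 0.93 and 0.875 in KO at D8, against 0.119, 0.119 and 0.171 in KO at D0. With the neighbours counted, all these exons were mostly included at D8 and mostly skipped at D0 in KO.

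Actin, microtubule and motor protein genes had 58 of 500 events called (11.6%, 47 higher and 11 lower), and membrane traffic and endocytosis genes 56 of 456 (12.3%, 39 and 17). In the membrane traffic list a 108-nt exon of BIN1, a protein that shapes membrane tubules, rose by 0.689 (SE 0.0302), a 135-nt exon of RAB11FIP3, an effector of recycling endosomes, by 0.600 (SE 0.0333), and a 39-nt exon of SEC31A, a coat protein of vesicles leaving the endoplasmic reticulum, by 0.583 (SE 0.0247). Transcription factor and chromatin genes had 53 of 499 events called (10.6%, 33 and 20). A 21-nt exon of MEF2D, a muscle transcription factor, was at 0.818, 0.818 and 0.899 in KO at D8, against 0.032, 0.088 and 0.112 in KO at D0 (difference 0.768, SE 0.0359, edgeR adjusted p = 5.39e-30). In the same list a 63-nt exon of TEAD3, a partner of the YAP co-activator, rose by 0.736 (SE 0.103) and a 122-nt exon of FOXP1, a forkhead factor, by 0.715 (SE 0.0678).

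Kinase, phosphatase and signalling genes had 47 of 505 events called (9.31%, 31 higher and 16 lower), among them a 24-nt exon of CSNK1G3, a casein kinase, at 0.816, 0.799 and 0.82 in KO at D8 against 0.094, 0.081 and 0.098 in KO at D0, and a 165-nt exon of FYN, a Src-family kinase, which rose by 0.657 (SE 0.0111). Energy metabolism and mitochondrial genes had 14 of 174 called (8.05%, 8 and 6). A 60-nt exon of MFF, a receptor for the mitochondrial fission machinery, rose by 0.634 (SE 0.0172), a 200-nt exon of IDH3B, a subunit of a citric acid cycle enzyme, fell by 0.271 (SE 0.0229) and a 115-nt exon of NDUFAF6, a complex I assembly factor, by 0.288 (SE 0.0302, edgeR adjusted p = 0.0383). The NDUFAF6 call was lost without any 1 of the 6 libraries (adjusted p = 0.0655 to 0.181). Splicing and RNA-binding protein genes had 40 of 565 called (7.08%, 28 and 12), the share nearest to that of all members. There a 53-nt exon of FXR1, an RNA-binding protein of muscle, rose by 0.657 (SE 0.0627), a 289-nt exon of STAU1, a double-stranded RNA-binding protein, by 0.469 (SE 0.0682), and a 91-nt exon of CLK4, a kinase of splicing factors, fell by 0.462 (SE 0.025).

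**Figure D2:**
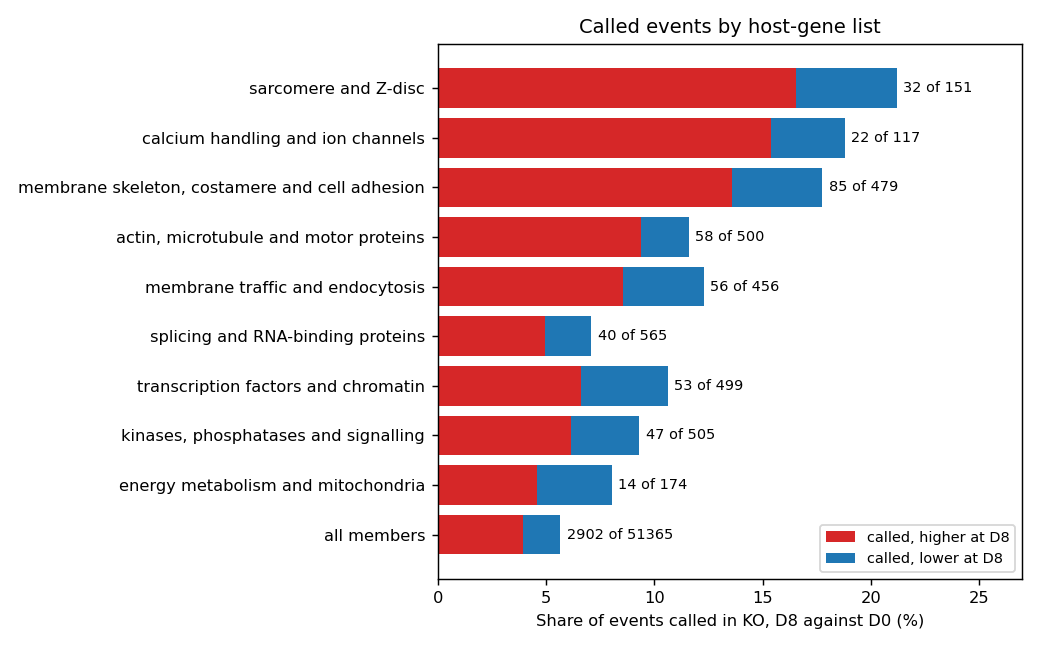
Share of events called between D8 and D0 in KO (x axis, percent of the list's events) for 9 host-gene lists and for all members, with called rises in red, called falls in blue and the counts beside each bar. The shares run from 7.08 to 21.2%, against 5.65% for all members.

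The same days were compared in WT to ask which switches were larger or smaller in KO. Of 50661 members with enough reads in WT, 2257 (4.46%) were called there, 1596 higher and 661 lower. Of the 2831 events called in KO among them, 1352 (47.8%) were also called in the same direction in WT and 4 in the opposite one, and 2651 (93.6%) had the same sign. Of the events called in WT, 59.9% were called in the same direction in KO and 95.3% had the same sign. KO calls come from the fit of 6 KO libraries, and WT calls from the fit of 12 libraries of both genotypes. The fit of 12 libraries called 2942 of the 50661 in KO, among them 2827 of the 2831. The D8 libraries of both genotypes differ from the D0 libraries in the effective read lengths of their tables, so both switches share this feature. Where KO was called, the median size of the difference was 0.229 in KO and 0.138 in WT along the same direction; where WT was called, it was 0.187 in KO and 0.229 in WT. Each median is largest in the genotype by which the events were chosen.

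The difference between the switches was called for 167 events (0.33%), in 158 exons of 128 genes. By the difference in inclusion level, 122 were more positive and 45 more negative in KO. Of these, 85 were called as a switch in KO only, 30 in WT only, 44 in both in the same direction, 4 in opposite directions and 4 in neither. In level, the KO switch was the larger in 135 of the 167. The genotypes differed by a median of 0.206 at D8 and 0.0933 at D0 in these events, and the gap was wider at D8 in 115 and at D0 in 52. This test works on the odds of inclusion, so an exon near 0 at D0 in both genotypes can differ widely in level at D8 without a call. ARHGEF11, for example, was at 0.838 ± 0.0646 in KO and 0.435 ± 0.106 in WT at D8 (SD, n = 3) with an edgeR adjusted p = 0.796 for the difference. A called difference can also have opposite signs in odds and in level. In a called event, a 79-nt TPM1 exon rose from 0.312 to 0.874 in KO and from 0.751 to 0.992 in WT. The WT rise was the larger in odds, although the event counts here as more positive in KO. How many of the 167 events do so was not counted. Leaving out 1 of the 12 libraries gave 94 to 165 calls, with the lowest counts without WT library 3 of D8 (94), KO library 2 of D8 (107) and KO library 3 of D0 (108), numbered as listed in the tables. limma on logit levels called 297, which do not include all of the exons named next.

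The most positive difference was that of MEF2D. Its 21-nt exon stayed at 0.09, 0.095 and 0.038 in WT at D8 and at 0.032, 0.011 and 0.041 in WT at D0, so the switch to 0.818, 0.818 and 0.899 in KO at D8 exceeded the WT switch by 0.721 (SE 0.0413, edgeR adjusted p = 0.0104). The MEF2D call was lost without WT library 1 or 3 of D0 or WT library 3 of D8 (adjusted p up to 0.257), and with limma on logit levels (adjusted p = 0.0721). NAV2 also differed by 0.721 (SE 0.0801, edgeR adjusted p = 0.0419), with WT at 0.355, 0.253 and 0.254 at D8 against 0.148, 0 and 0.166 at D0. RSG1 (0.629), the membrane-bound transcription factor MYRF (0.610) and the phospholipid flippase ATP8A1 (0.581) were also among the 6 most positive. Each of these calls other than that of MEF2D was lost without 6 to 11 of the 12 libraries in turn. With limma they were lost as well, at adjusted p = 0.187 for NAV2, 0.111 for RSG1, 0.333 for MYRF and 0.124 for ATP8A1, and so were the KO switches of MYRF (0.248) and ATP8A1 (0.0894).

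The most negative difference was that of a 287-nt exon of WDR86 (-0.739, SE 0.162, edgeR adjusted p = 0.0346), which rose by 0.578 in WT and was at 0.73, 0.763 and 0.639 in KO at D8 against 0.615, 1 and 1 in KO at D0. The WDR86 call was lost with limma (adjusted p = 0.205), in the fit on exons of at least 150 nt (0.0524) and without 9 of the 12 libraries in turn. The TPM1 exon differed by -0.544 (SE 0.0417, edgeR adjusted p = 1.69e-66), with WT at 0.109, 0.178 and 0.236 at D8 against 0.516, 0.473 and 0.525 at D0. In TPM1 the genotypes were thus further apart at D0 than at D8, since KO included the exon almost fully at D0. The ACTN1 81-nt exon was the reverse: WT was at 0.744, 0.823 and 0.797 at D8 and at 0.87, 0.863 and 0.901 at D0, and the switches differed by -0.536 (SE 0.0358, edgeR adjusted p = 4.93e-08). A 50-nt exon of SORBS2 was at 0.228, 0.232 and 0.216 in KO and 0.783, 0.78 and 0.709 in WT at D8, against 0.721, 0.689 and 0.717 in KO and 0.621, 0.792 and 0.738 in WT at D0 (-0.524, SE 0.0571, edgeR adjusted p = 0.000222). KIAA1109 (-0.482) and a 48-nt exon of UAP1 (-0.474), an enzyme that makes UDP-GlcNAc, completed the 6. Of these, TPM1, ACTN1, SORBS2 and UAP1 kept their calls without any 1 library and with limma. At D8 the cardiomyocyte marker sum was higher and the surface ectoderm and amnion sum lower in KO than in WT. Within the cardiomyocyte list, ACTN2 and NPPA had lower means in KO. The part of cell composition in these differences was not tested.

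**Figure D3:**
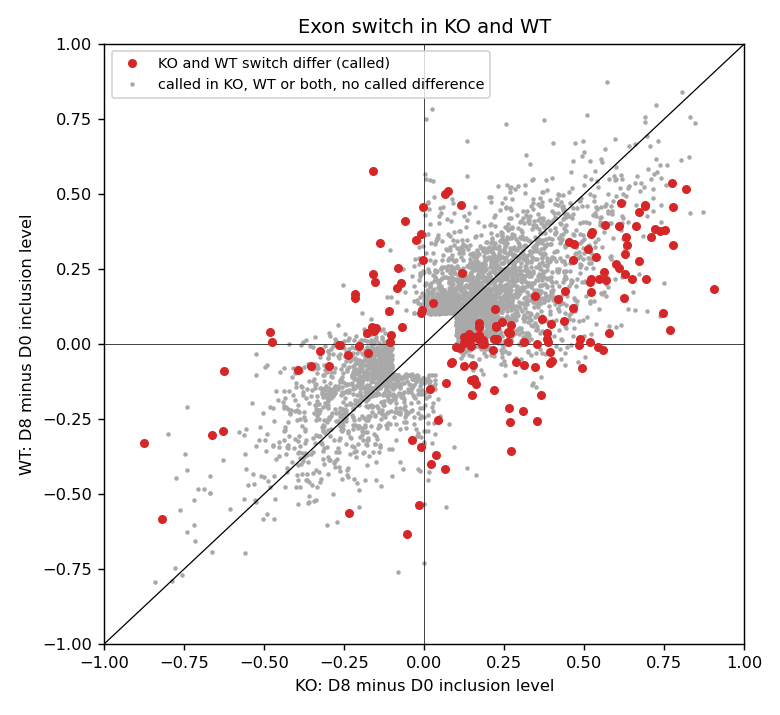
Difference in inclusion level between D8 and D0 in KO (x axis) and in WT (y axis) for events called in either genotype, 1 point per event, with the line of equal switches. Red points are the 167 events whose switches differ by the test; most lie below the line on the right, where KO rose more than WT.

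QKI's own 117-nt exon also differed between the genotypes. With the neighbours held on both days it was at 0.971, 0.981 and 0.976 in the libraries labelled KO at D8, against 0.586, 0.615 and 0.673 in KO at D0, and near 1 in all WT libraries. Its rise of 0.351 (SE 0.0257, edgeR adjusted p = 4.58e-13) differed from that of WT by 0.353 (SE 0.0258, edgeR adjusted p = 0.000196). This rise is for these neighbours only. With another pair, listed at D8 but not at D0, the exon was at 0.137, 0.119 and 0.131 in the libraries labelled KO. That pair held 2827 reads in all at D8, against 1089 for the pair used here. The other 3 QKI events among the members were not called. A 143-nt exon was at 0.751, 0.811 and 0.705 at D8 and at 0.735, 0.804 and 0.814 at D0 in KO, against 0.961 to 0.973 in WT.

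Day 4 separated early from late switches. Of 39402 members also read at D4, 1774 (4.5%) were called between KO D4 and D0, 1396 higher and 378 lower, and 903 (2.29%) between KO D8 and D4, 505 higher and 398 lower. The D4 libraries held 23608833 to 29823620 junction reads in KO, fewer than at D8 (57647929 to 67649048) or D0 (77275994 to 99153168). Among the 2596 called D8 against D0 switches with D4 values, a median of 65.7% of the difference was present at D4, 74.5% for the 1807 rises and 48.3% for the 789 falls. Under 25% was present in 595 events and over 75% in 1081. The 595 include 223 events that had moved the opposite way at D4. The 1081 include 426 that were beyond their D8 level. The shares at D4 use the same D0 and D8 libraries as the calls and are descriptions. The D4 and D8 tables also share effective lengths that differ from those of D0. The part of this in the shares at D4, and in the gap between rises and falls, was not tested.

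Early switches included FXR1, at 0.288, 0.264 and 0.463 in KO at D0, 0.963, 0.979 and 0.976 at D4 and 0.993, 0.997 and 0.996 at D8, and BIN1, at 0.256, 0.213 and 0.297 at D0, 0.979, 0.978 and 0.978 at D4 and 0.914, 0.976 and 0.942 at D8. In both, all D4 libraries were above all D0 libraries and within 0.1 of the D8 mean. MYH10 was intermediate, at 0.495, 0.571 and 0.478 at D4. Late switches included MEF2D, at 0.042, 0.023 and 0 at D4, CAMK2D, at 0.012, 0.009 and 0, the TPM1 exon, at 0.966, 0.964 and 0.963, and the ACTN1 81-nt exon, at 0.825, 0.872 and 0.857. In these 4 exons the KO libraries at D4 were still near their D0 levels.

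**Figure D4:**
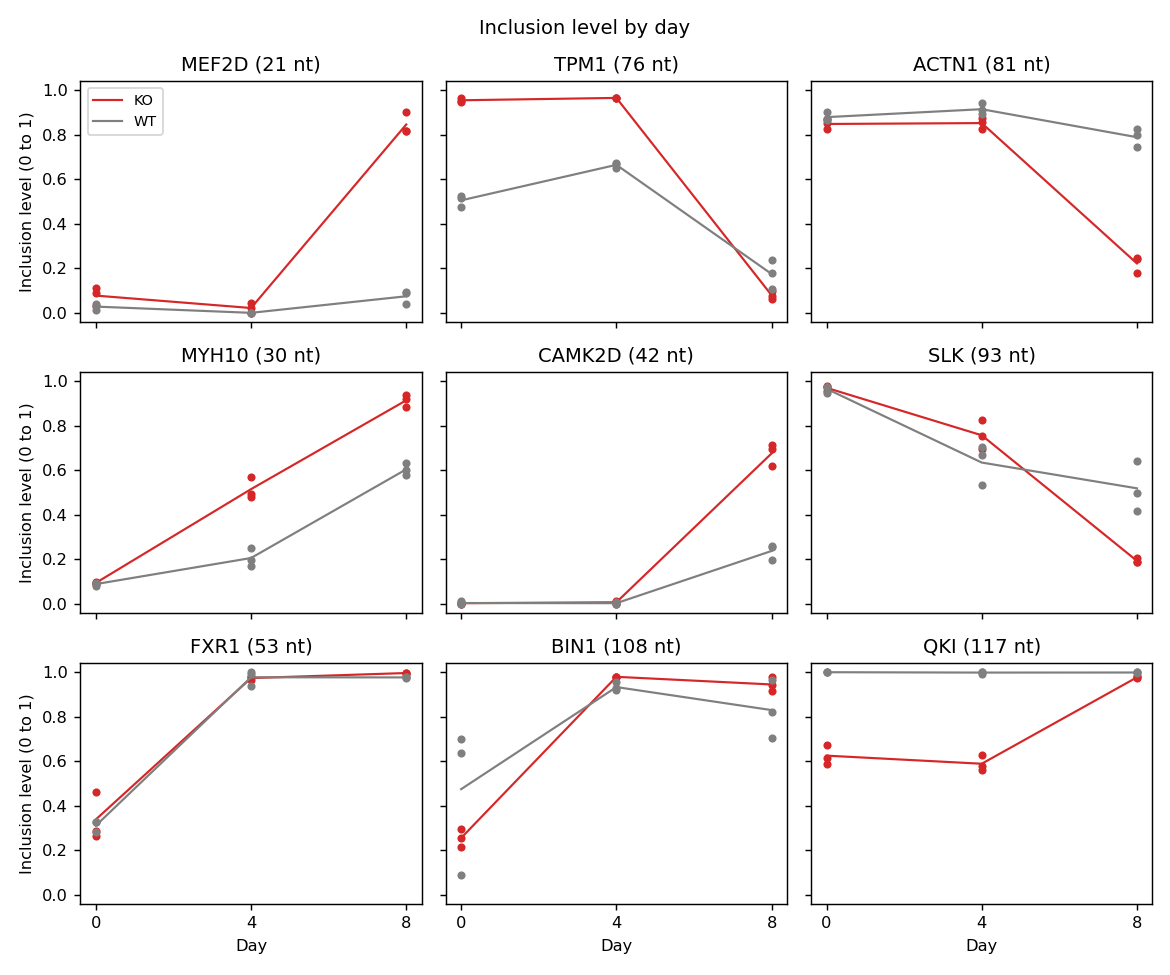
Inclusion level (y axis, 0 to 1) by day (x axis) for 9 exons, with points for the 3 libraries of each group and lines through their means, KO in red and WT in grey. FXR1 and BIN1 had moved by day 4, whereas MEF2D, TPM1, ACTN1 and CAMK2D moved between days 4 and 8.

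Exon length and reading frame were counted among the called events. Exons of at most 27 nt made up 95 of 2028 rises (4.68%) and 13 of 874 falls (1.49%), against 1.26% of all members. Among called events between KO D8 and D4, whose tables share effective lengths, they were 57 of 505 rises (11.3%) and 5 of 398 falls (1.26%). Between KO D4 and D0 they were 2.87% of rises and 1.85% of falls, and between WT D8 and D0 4.82% of rises and 1.97% of falls, so the shares in WT were close to those in KO. Of exons annotated as coding, a length divisible by 3, which keeps the reading frame, was found in 717 of 1084 rises (66.1%) and 223 of 429 falls (52.0%), against 45.7% of all members, and in 96 of 119 coding exons (80.7%) whose KO and WT switches differed. The frame was kept in 58.2% of coding rises between KO D4 and D0, 77.9% between KO D8 and D4, and 63.6% between WT D8 and D0. Exons of 5′ UTRs were 16.9% of matched rises and 16.7% of matched falls, against 8.88% of all matched members. These are counts with no test, since events that share an exon or a gene are not independent.

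Of 22 splicing regulators, 12 rose and 8 fell at gene level between KO D8 and D0, where 82.9% of all genes tested were called, so the count says nothing particular to regulators. Among those that act in muscle, RBM24, which promotes muscle exons, averaged 173 ± 20.9 CPM in KO at D8 and 0.212 ± 0.0464 CPM in KO at D0 (SD, n = 3), RBM20, the regulator of titin splicing, 65.9 ± 3.62 and 0.967 ± 0.150 CPM, and RBFOX1 29.8 ± 5.71 and 1.25 ± 0.0547 CPM. RBM38 (469 and 45.7 CPM), RBFOX2 (835 and 305 CPM), MBNL1 (21.9 and 14.0 CPM), MBNL2 (27.5 and 2.24 CPM), CELF2 (110.04 and 35.2 CPM), RBPMS (361 and 132 CPM), RBPMS2 (182 and 99.5 CPM) and NOVA1 (13.5 and 7.56 CPM) were also higher in KO at D8 than at D0, as was QKI. Lower at D8 were the epithelial regulators ESRP1 (42.2 and 234 CPM) and ESRP2 (11.9 and 35.8 CPM), the repressors PTBP1 (328 and 528 CPM) and PTBP3 (65.4 and 335 CPM), and RBM47 (37.9 and 94.6 CPM), CELF1 (251 and 331 CPM), KHDRBS3 (16.5 and 21.7 CPM) and the low SRRM4. PTBP2 (72.7 and 78.6 CPM) and MBNL3 did not pass the test. Whether any of these moves with a given exon was not tested.

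The KO switches were also looked up in 293T, a kidney-derived line given control or QKI siRNA. In the authors' deposited table, at their FDR under 0.05 and a difference of at least 0.1, 185 of 29917 members read there (0.618%) were called. The share was 62 of 1934 (3.21%) for events called in KO between the days and 11 of 127 (8.66%) for events whose KO and WT switches differed. Of all members, 66.0% were included above 0.9 in KO on both days, and none of these can be a called KO switch. Events called between the days are thus chosen for varying. Their share was not compared with that of equally variable exons. The authors' deposited table names neither arm, so no direction is drawn. Among the exons named above, ARHGEF11 (-0.145), MEF2D (0.112) and UAP1 (-0.292) met that rule in the authors' deposited table, as second minus first arm.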

How the data were processed

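Poly(A) RNA was sequenced from 18 whole-cell libraries of 6 groups. Per the submitters' processing notes the reads passed through UMI-tools, cutadapt, STAR, featureCounts and DESeq with the build hg19; versions and the strand setting of the counting are not stated there. The authors deposited whole-number counts per gene and, in the format of rMATS, junction read counts, inclusion levels (a fraction from 0 to 1), effective lengths, p-values and FDR values per skipped exon. Each exon table holds 3 libraries per arm, without replicate numbers.

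The members and the gene lists were chosen with earlier results of these data known. Inclusion and skipping reads entered a quasi-likelihood model, edgeR 4.0.16 under R 4.3.3, with 1 term per library and the odds of inclusion per group, two-sided, with Benjamini-Hochberg adjustment over all members. KO D8 against D0 used 6 libraries, WT and the difference of the switches 12, and the D4 comparisons 9. The effective length of a skipped transcript is 150 in the D0 table and 100 in the D4 and D8 tables, so the ratio of effective lengths entered as an offset; this was added after the tables were seen, and fits without it, or on exons of at least 150 nt, were run beside it. SEs of differences come from the SDs of the libraries. Gene counts were fitted in edgeR with filterByExpr and TMM over all 18 libraries. The fit was tested on simulated data.

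The exons named are the 12 largest called rises and falls without overlap between days, the 6 most positive and negative called differences between KO and WT, the 3 largest called genes of each of 9 lists, 1 event per gene, and QKI; regulators are given above 10 CPM. Coding status came from GENCODE v29 for 97.7% of members, matched by gene, exon length and intron lengths, with no coordinates carried between builds. Alternatives were limma 3.58.1 on logit levels bounded at 0.01 and 0.99, other read and size thresholds, DESeq2 1.42.0 for gene counts, and each library left out. Nuclear libraries were not used here, and 1 exon that the naming rule selected is not reported here.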

Additional observations from a re-analysis of the deposited data

Results flagged for a closer look

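The switch between D8 and D0 differed between KO and WT, by the test of the difference itself, in 18 of the exons named above, which flagged each of them. Values are the KO switch minus the WT switch in inclusion level. The difference was positive for MEF2D (0.721), NAV2 (0.721), RSG1 (0.629), MYRF (0.610), ATP8A1 (0.581), the QKI 117-nt exon (0.353), CSNK1G3 (0.339), RAB11FIP3 (0.335), GABBR1 (0.321), MYH10 (0.304) and MFF (0.303). That of QKI is for the neighbours held on both days only. It was negative for WDR86 (-0.739), TPM1 (-0.544), ACTN1 (-0.536), the SORBS2 50-nt exon (-0.524), KIAA1109 (-0.482), UAP1 (-0.474) and RABGAP1L (-0.238). In RSG1 and UAP1 the KO switch itself was not called (0.271 and -0.137), nor was that of WDR86 (-0.161). Groups of 3 libraries are too small to flag single libraries.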

How the results depend on the processing

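Switch counts in KO, WT and their difference were 2902, 2257 and 167. Restricted to differences of at least 0.2, calls numbered 1735 in KO (1242 higher, 493 lower), 1326 in WT, 977 for KO D4 against D0 and 533 for KO D8 against D4. Restricted to exons of at least 150 nt, whose length ratio is the same in all tables, they numbered 797 in KO (516 higher, 281 lower), 583 in WT and 29 for the difference. Fewer events were tested there. In KO the 797 calls were 5.63% of 14165 events, against 5.65% of all members. limma called 297 differences. Leaving out 1 library gave 2232 to 2394 calls in KO (1584 to 1735 higher, 648 to 700 lower), 1794 to 2224 in WT and 94 to 165 differences. The no-offset fit called 3031 in KO, 73.7% of them higher, against 69.9% with the offset. limma called 2248 in KO, of which 1940 were among the 2902. The offset, the 150-nt restriction and the overlap rule (2816 calls) were chosen after seeing the data.

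Of 880 pairs of a named result and an alternative, 793 kept direction and call. The difference between KO and WT lost its call without 11 of the 12 libraries in turn for ATP8A1, 10 for MYRF, 9 for WDR86, 8 for NAV2 and KIAA1109, 6 for RSG1, and 3 for MEF2D. The MYRF switch in KO lost its call without 4 of 6. The uncalled QKI 171-nt exon had a difference of -0.006 to 0.008 without 1 library (0.008 without KO library 2 of D0, 0.00117 without KO library 3 of D8), and the 144-nt exon -0.0015 to 0 (0 without KO library 3 of D8); the cause was not tested.

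No paired analysis was possible because the exon tables carry no replicate numbers. For gene counts, with the replicate number as a block, 17861 genes were called against 18036 without it. Deviations of log gene levels from the group means correlated between same-numbered KO libraries of D8 and D0 at 0.165 and 0.0292, for numbers 1 and 2. These 2 values cannot show whether same-numbered libraries are related. Junction depth limits exons near 10 reads per library, such as ZNF782, MAP2 and ACTN2 at D0.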
